A study of Homo sapiens with 6 samples.

Results

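Messenger RNA of 30 genes of cholesterol and fatty acid synthesis was compared between K562 cells that depend on wild-type EP400 and K562 cells that depend on an EP400 made to lose its contact with TRRAP. The 30 genes were listed by symbol from their place in the pathway, and the rule that names them uses no measured value. All 30 were found under 1 symbol each among the 60609 genes of the count files. All 30 also passed the filter on low counts, which left 19114 genes to test out of 34998 with a count. The list holds 7 genes of the steps from acetyl-CoA to farnesyl diphosphate, 11 genes from squalene formation to cholesterol, 5 genes of sterol control and transport, 3 genes of fatty acid synthesis and 4 genes of fatty acid desaturation and elongation.

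EP400 is the ATPase and scaffold subunit of the human TIP60 complex, and TRRAP is the subunit that transcription activators bind to recruit the complex. In every library the endogenous EP400 carried a dTAG degradation tag and the cells were given 500 nM dTAGV-1, a small degrader of tagged proteins, for 24 h. The replacement EP400 was expressed from the AAVS1 safe harbour locus. The WT group, with 3 libraries, expressed wild-type EP400, and the Delta-TRRAP group, with 3 libraries, expressed EP400 from which the SANT and HD domains had been deleted. Both lines grew in medium with newborn calf serum. The lines were clones, and no second clone of either line was analysed here, so clone and genotype cannot be told apart. The p-values measure only the spread between these libraries.

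Cholesterol is built from acetyl-CoA through mevalonate, the isoprenoid diphosphates and squalene, and fatty acids are built from acetyl-CoA through malonyl-CoA. Both routes are driven by the SREBP transcription factors, which are held in the endoplasmic reticulum by INSIG proteins when sterols are plentiful and carried to the Golgi by SCAP for cleavage when sterols fall. SREBP-2, encoded by SREBF2, acts mainly on sterol genes, and SREBP-1, encoded by SREBF1, acts mainly on fatty acid genes.

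Libraries held 35076835 to 42616061 counts. Mitochondrial genes took 3.18% to 3.71% of the WT counts and 5.07% to 6.24% of those of Delta-TRRAP. The submitters label the K562 cells lymphoblast. All 10 erythroid markers examined passed the filter, with a summed level of 223192 to 225510.0 normalized counts (counts scaled to a common library size) over the WT libraries and of 136013 to 140883 over the Delta-TRRAP libraries, and 2 were called higher and 1 lower. Of 8 lymphoid markers 4 passed, summing to 505 to 517 against 449 to 476, none was called, and MS4A1 was at 0 in every library. Of 6 fibroblast markers 4 passed, 2 were called higher, the sums were 35.5 to 57.0 against 909.7 to 972, and LUM was at 0 in every library. The erythroid and fibroblast shifts were each carried mostly by 1 gene, named after its values were seen, TFRC among the erythroid markers (192094 to 90173 mean normalized counts) and COL1A2 among the fibroblast markers (1.62 to 875.5), while COL1A1 stood at 28.7 and 30.05. The part of these shifts in the results was not tested. EP400 itself gave 5057 ± 277 normalized counts in WT and 5574 ± 1238 in Delta-TRRAP (SD, n = 3), with a log2 fold change of 0.14 ± 0.11 (SE; adjusted p 0.272, edgeR). The genotypes share most of the EP400 sequence, so the count does not separate them.

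Most of the list was higher in Delta-TRRAP cells. A gene is said here to have risen or fallen when the edgeR quasi-likelihood test reached 0.01 after Benjamini-Hochberg adjustment over all genes tested, and to have been called when the fold change was also at least 2. Of the 30 genes 17 rose, 4 fell and 9 did not pass. Over all 19114 genes tested, 30.7% rose and 27.6% fell. Scaling by library size alone moved the all-gene median log2 fold change from 0.03 to 0.17. Under it 23 of the 30 rose and 2 fell. Calls over all genes also shifted upward, from 3160 higher and 1162 lower to 3599 higher and 921 lower. The shares of all genes that rose or fell were not counted under that scaling. In 21 of the 30 genes every Delta-TRRAP library lay above every WT library, in 5 every one lay below, and in 4 the groups overlapped. Across all genes tested the groups were apart in these directions in 37.4% and 33.7%.

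At the 2-fold requirement the list gave few calls. The 3 genes called higher were HMGCS1, MSMO1 and STARD4, and the 1 gene called lower was FADS1. Of all genes tested 16.5% were called higher and 6.08% lower. Of the 3160 higher calls only 164 lay in genes with a mean of at least 1000 normalized counts, a level that 25 of the 30 genes reached. In the 6804 genes of that abundance 2.41% were called higher and 3.89% lower. At the adjusted p alone 22.1% of these 6804 genes rose and 45.9% fell, while 15 of the 25 rose and 4 fell. The median log2 fold change was 0.28 over the 30 genes and 0.29 over the 25, beside 0.03 over all genes tested and -0.14 over the 6804. Individual values ran from -1.59 to 1.28, with 24 above 0 and 6 below. In bulk RNA, fewer cells expressing a gene and less RNA per cell cannot be told apart.

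**Figure D1:**
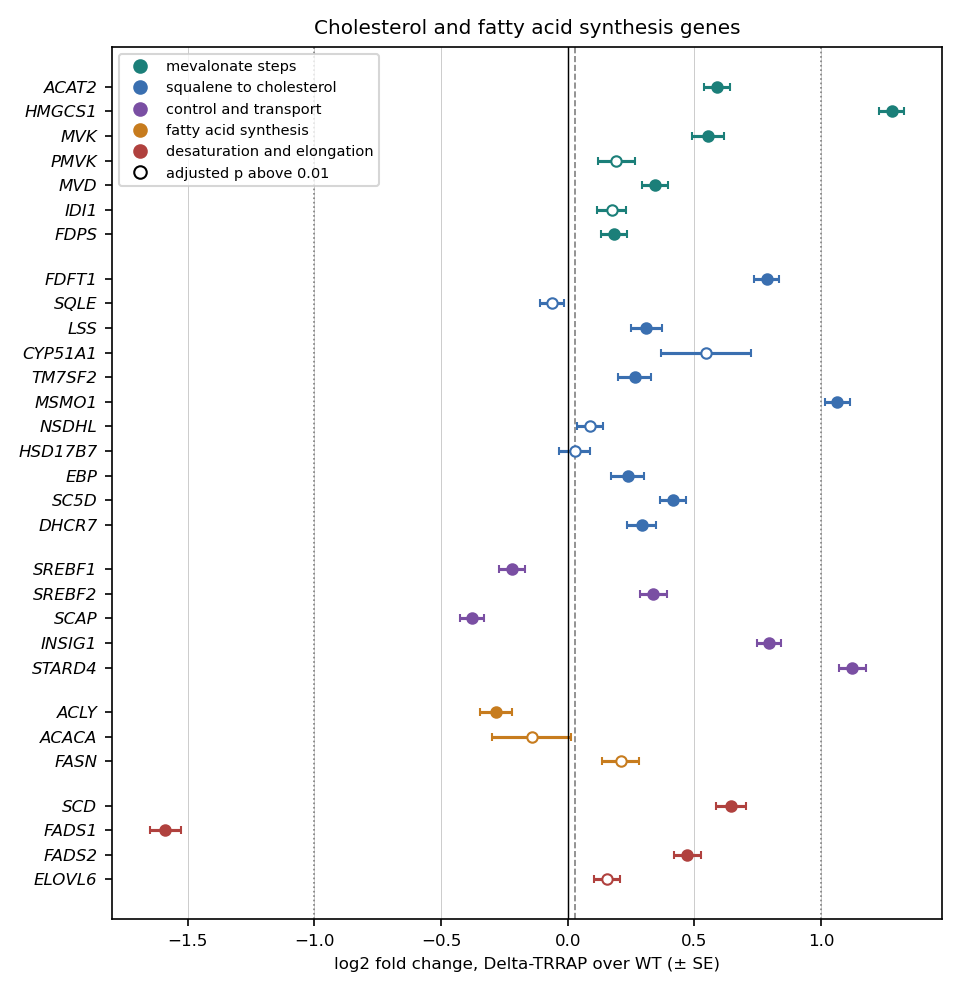
Log2 fold change, Delta-TRRAP over WT, of the 30 genes, grouped by pathway role, with bars for the standard error (3 libraries a group), open points for adjusted p above 0.01, a dashed line at the median of all genes tested and dotted lines at a fold of 2. FADS1 at -1.59 stands below all others, and HMGCS1, STARD4 and MSMO1 lie above 1.

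The summed normalized count of the 30 genes was 280424 to 290178 in the WT libraries and 325127 to 342628 in the Delta-TRRAP libraries, a log2 ratio of 0.22. This ratio was 0.13 without SCD and 0.35 with scaling by library size alone. The steps up to farnesyl diphosphate summed to between 49079 and 51399 in WT and to between 77311 and 79755 in Delta-TRRAP, and the steps from squalene to cholesterol to between 64749 and 66258 and between 83251 and 84661. The median log2 fold changes of these groups were 0.34 and 0.29. The desaturation and elongation genes had a like median of 0.31, and only FADS1 of the 4 fell. Their sum was still lower, between 101149 and 108761 in WT and between 86679 and 98682 in Delta-TRRAP, because the abundant FADS1 lost more counts than SCD gained. For fatty acid synthesis the groups overlapped, at sums between 33096 and 37187 and between 28749 and 37219.

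HMGCS1 encodes the cytosolic HMG-CoA synthase, which feeds the mevalonate pathway (chr5:43287470-43313512, reverse strand of GRCh38, as for the positions that follow). It gave 13411, 13545 and 13801 normalized counts in the WT libraries and 31712, 33478 and 33632 in the Delta-TRRAP libraries. All Delta-TRRAP values lay far above all WT values, with little spread inside either group. This was the highest log2 fold change of the 30, 1.28 ± 0.05 (SE), or 2.42-fold, with an adjusted p of 7.60e-12 by edgeR.

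MSMO1 encodes the methylsterol monooxygenase that starts removal of the methyl groups at carbon 4 of the sterol ring (chr4:165327667-165343164, forward strand). Its WT libraries held 4825, 4886 and 4705 normalized counts and its Delta-TRRAP libraries 9769.9, 10234 and 10113. The groups were again apart, and the log2 fold change was 1.06 ± 0.05, or 2.09-fold (adjusted p 4.88e-11, edgeR). The gene sits close to the 2-fold requirement. Its median neighbour on the chromosome was also higher, and relative to the 20 nearest expressed genes its log2 fold change was 0.92.

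STARD4 encodes a soluble protein that moves cholesterol between membranes (chr5:111496033-111512590, reverse strand). Counts were 2271, 2311 and 2340.1 in WT and 4788, 5046 and 5245 in Delta-TRRAP. Every Delta-TRRAP library was above every WT library, with a log2 fold change of 1.12 ± 0.05, or 2.18-fold (adjusted p 4.80e-11, edgeR).

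FADS1 encodes the delta-5 desaturase of polyunsaturated fatty acid synthesis (chr11:61799627-61829318, reverse strand). It was the only called gene of the 30 to fall. The WT libraries gave 54868, 58067 and 57917 normalized counts and the Delta-TRRAP libraries 19441, 20214 and 17192. No library of one group came near the other group, and the log2 fold change was -1.59 ± 0.06 (adjusted p 7.99e-12, edgeR), which is 3.01-fold lower.

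**Figure D2:**
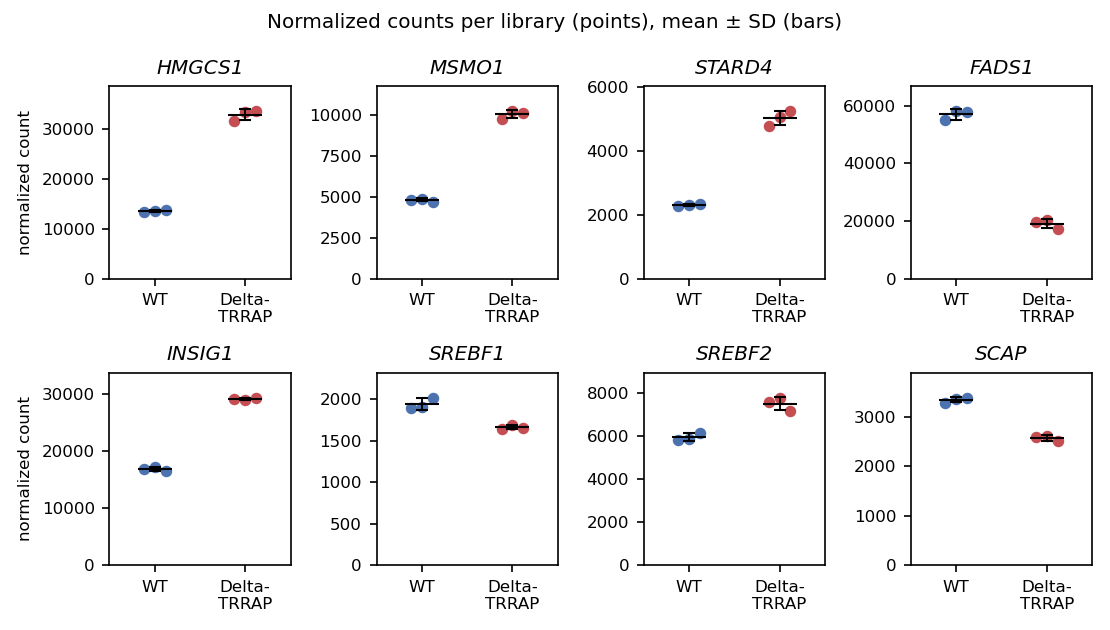
Normalized count in each of the 6 libraries for the genes called changed and for the SREBP control genes, with WT and Delta-TRRAP side by side, points for libraries and bars for the mean and SD. HMGCS1, MSMO1, STARD4, INSIG1 and SREBF2 are higher in all 3 Delta-TRRAP libraries, and FADS1, SREBF1 and SCAP are lower in all 3.

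The promoters shown next are those of the 4 genes of the list that were called in these data. Each run gives the 250 bases before the RefSeq start site on the GRCh38.p14 assembly, read 5′ to 3′ on the strand of the gene, with capitals marking CCAAT on either strand (written ATTGG when it lies on the other strand). The windows are chr5:43313413-43313662 on the reverse strand, chr4:165327419-165327668 on the forward strand, chr5:111512536-111512785 on the reverse strand and chr11:61817004-61817253 on the reverse strand.
HMGCS1: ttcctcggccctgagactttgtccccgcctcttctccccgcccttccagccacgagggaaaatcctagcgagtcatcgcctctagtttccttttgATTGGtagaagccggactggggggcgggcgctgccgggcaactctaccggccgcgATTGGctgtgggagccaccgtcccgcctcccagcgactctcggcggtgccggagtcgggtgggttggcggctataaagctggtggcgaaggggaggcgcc
MSMO1: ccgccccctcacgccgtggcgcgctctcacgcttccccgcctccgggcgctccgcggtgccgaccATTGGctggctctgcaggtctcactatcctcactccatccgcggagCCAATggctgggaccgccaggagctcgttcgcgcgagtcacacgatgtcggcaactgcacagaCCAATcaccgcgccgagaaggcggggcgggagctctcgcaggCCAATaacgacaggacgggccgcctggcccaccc
STARD4: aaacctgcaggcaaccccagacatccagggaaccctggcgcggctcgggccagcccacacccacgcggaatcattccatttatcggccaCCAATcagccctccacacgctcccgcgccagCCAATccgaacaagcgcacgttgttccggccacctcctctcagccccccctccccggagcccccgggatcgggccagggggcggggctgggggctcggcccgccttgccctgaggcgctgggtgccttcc
FADS1: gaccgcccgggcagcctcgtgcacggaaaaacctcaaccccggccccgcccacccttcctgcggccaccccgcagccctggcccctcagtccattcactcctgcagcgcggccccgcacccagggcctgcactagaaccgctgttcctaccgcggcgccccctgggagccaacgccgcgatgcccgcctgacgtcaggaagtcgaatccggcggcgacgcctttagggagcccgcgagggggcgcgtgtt

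CCAAT is the site of the NF-Y factor, a known partner of SREBPs. The 3 genes called higher hold 2 copies in HMGCS1, 4 in MSMO1 and 2 in STARD4. In HMGCS1 the copies begin 155 and 100 bases before the start, in MSMO1 185, 139, 76 and 34 bases before, and in STARD4 161 and 130 bases before. FADS1 holds 0. RefSeq promoters, searched from 250 bases before to 50 after the start, were matched for 26 of the 30 genes (not ACAT2, FASN, FDFT1 or SQLE). A gene counted as holding a motif when any of its RefSeq promoters did. CCAAT was present in 20 of the 26 genes (76.9%) and in 42.9% of the 11298 tested genes matched. In the 5556 matched genes with a mean of at least 1000 the share was 44.5%. Counted by single promoters and not by gene, a different unit, it was in 34.6% of all 35116. The median log2 fold change was 0.32 in the 20 with CCAAT and -0.03 in the 6 without, which are CYP51A1, ELOVL6, FADS1, PMVK, SCAP and SREBF1. ACLY and ACACA hold CCAAT at -0.28 and -0.14, while CYP51A1, PMVK and ELOVL6 lack it at 0.55, 0.19 and 0.15. The same split was not made over all genes tested. These are descriptions of letters in a window, given with no test.

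Other motifs were searched in the same windows on both strands. The GC box GGGCGG was in 25 of 26 (96.2%), in 73.8% of tested genes and in 78.6% of the abundant ones. The E-box CACGTG was in 4 of 26 (15.4%), namely INSIG1, LSS, SC5D and SCAP, beside 12.2% and 13.5%. The sterol regulatory element, searched as TCACNCCAC, was in 1 of 26 (3.85%), SREBF2, beside 1.49% and 1.40%. Its stretch, chosen after the values were seen, lies at chr22:41832957-41832995 on the forward strand of GRCh38.p14 and is shown with the element in capitals.
SREBF2: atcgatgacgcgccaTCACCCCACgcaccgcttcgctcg

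The control genes moved in different directions. SREBF2 gave 5820.1, 5884 and 6167 normalized counts in WT and 7592, 7806 and 7192 in Delta-TRRAP. The groups were apart, and SREBF2 rose by a log2 fold change of 0.34 ± 0.05 (adjusted p 3.18e-05, edgeR). SREBF1 gave 1891, 1906 and 2019.6 in WT and 1641, 1690.4 and 1659 in Delta-TRRAP. These groups were apart in the opposite direction, and SREBF1 fell, with a log2 fold change of -0.22 ± 0.05 (adjusted p 0.00123, edgeR). It did not pass with scaling by library size alone, at -0.09 (adjusted p 0.135), or with a mean of at least 50, at -0.15 (adjusted p 0.0122). Per kilobase of transcript, SREBF2 stood 2.86 to 2.89 times above SREBF1 in the WT libraries and 4.06 to 4.33 times above it in the Delta-TRRAP libraries, a ratio within each library that no scaling between libraries can move.

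INSIG1, which retains the SCAP complex and is itself an SREBP target, rose. Its counts were 16764, 17132 and 16491 in WT and 29049, 28942 and 29344 in Delta-TRRAP. The Delta-TRRAP libraries were close to each other and all above WT, with a log2 fold change of 0.79 ± 0.05, or 1.73-fold (adjusted p 1.09e-09, edgeR). SCAP, the escort of the SREBP precursors, fell. Its counts were 3284, 3349 and 3385 in WT and 2589, 2613 and 2511 in Delta-TRRAP. The groups did not overlap, and the log2 fold change was -0.38 ± 0.05 (adjusted p 4.60e-06, edgeR). Of these 5 control and transport genes 3 rose and 2 fell.

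On the way to farnesyl diphosphate 5 of 7 genes rose and none fell. ACAT2, the cytosolic thiolase that makes acetoacetyl-CoA, came next after HMGCS1. It gave 8399.9, 8823 and 8381 normalized counts in WT and 12549.9, 12548 and 13383 in Delta-TRRAP, and its log2 fold change was 0.59 ± 0.05. MVK, the mevalonate kinase, rose by 0.55 ± 0.06 on the log2 scale, and MVD, the decarboxylase that yields isopentenyl diphosphate, by 0.34 ± 0.05. FDPS, the farnesyl diphosphate synthase, rose by 0.18 ± 0.05 with an adjusted p of 0.00593 by edgeR. It did not pass on leaving out any single WT library, Delta-TRRAP replicate 1 or Delta-TRRAP replicate 3, with log2 fold changes of 0.16 to 0.18 in those fits, or with no filter on low counts (adjusted p 0.0101). FDPS has 8 named pseudogenes, and reads mapping to several places had been discarded. PMVK, the phosphomevalonate kinase, and IDI1, the isopentenyl diphosphate isomerase, did not pass, at 0.19 ± 0.07 and 0.17 ± 0.06 (adjusted p 0.0299 and 0.0133, edgeR). In both genes the groups did not overlap. Both passed with scaling by library size alone (adjusted p 0.00112 and 1.89e-04, edgeR) and with a mean of at least 50 (0.00513 and 0.00208). IDI1 also passed without WT replicate 1 (0.00323) and without Delta-TRRAP replicate 2 (0.00809).

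From squalene to cholesterol 7 of 11 genes rose and none fell. FDFT1, the squalene synthase, gave 15608, 16265 and 15523 normalized counts in WT and 27705, 26240.2 and 27698 in Delta-TRRAP. Its groups were well apart, with a log2 fold change of 0.78 ± 0.05 (adjusted p 2.11e-09, edgeR). SQLE, the squalene epoxidase that acts right after it and is a rate-limiting enzyme of the pathway, gave 28354, 29374 and 28991 and 27477, 27744 and 27757. Every Delta-TRRAP value of SQLE was below every WT value, yet the log2 fold change was only -0.06 ± 0.05 and did not pass (adjusted p 0.250, edgeR). Its sign turned with scaling by library size alone, at 0.07.

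MSMO1, described above, had the largest log2 fold change of these 11 genes. SC5D, the sterol desaturase at carbon 5, rose by 0.41 ± 0.05 on the log2 scale. LSS, which closes the ring to lanosterol, rose by 0.31 ± 0.06, and DHCR7, the last reductase of one branch, by 0.29 ± 0.06. TM7SF2, a sterol reductase at carbon 14, rose by 0.26 ± 0.07 and EBP, the sterol isomerase, by 0.24 ± 0.06 (adjusted p 0.00225 and 0.00441, edgeR). Neither passed in every set of libraries, since TM7SF2 did not pass without WT replicate 2 or Delta-TRRAP replicate 1, and EBP on leaving out any single WT library, Delta-TRRAP replicate 1 or Delta-TRRAP replicate 3. NSDHL, a sterol dehydrogenase, and HSD17B7, a ketosteroid reductase, did not pass, at 0.09 ± 0.05 and 0.03 ± 0.06 (adjusted p 0.138 and 0.719, edgeR). NSDHL did pass with scaling by library size alone (adjusted p 0.00142, edgeR) and with a mean of at least 50 (0.00991). CYP51A1, the lanosterol demethylase, had the lowest level of the list.

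CYP51A1 gave 85.1, 80.6 and 67.2 normalized counts in WT and 134, 124 and 80.4 in Delta-TRRAP. The groups overlapped, and its log2 fold change of 0.55 ± 0.18 did not pass (adjusted p 0.0134, edgeR). It did pass with scaling by library size alone (adjusted p 0.00332, edgeR), a mean of at least 50 (0.00847) and no filter on low counts (0.00114). With no filter its SE was 0.15 in place of 0.18, from the same libraries. In the GENCODE release 44 annotation, 2844 of its 4171 exonic bases are shared on the same strand with a readthrough gene. The files list that readthrough gene at 0 in every library, and reads in shared bases are given to neither gene in union mode, so the level of CYP51A1 is uncertain. EBP shares 644 of 1768 exonic bases with another gene that had at most 4 counts in a library.

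Of the 3 genes of fatty acid synthesis proper 1 fell and none rose. ACLY, which makes cytosolic acetyl-CoA from citrate, fell, with a log2 fold change of -0.28 ± 0.06 (adjusted p 9.09e-04, edgeR), and did not pass with scaling by library size alone (adjusted p 0.0401). FASN, the fatty acid synthase, gave 12414, 12079 and 13794 normalized counts in WT and 14811, 16358 and 13077 in Delta-TRRAP. These groups overlapped, and its log2 fold change was 0.21 ± 0.07 (adjusted p 0.0209). FASN did pass without Delta-TRRAP replicate 3, at 0.29 (adjusted p 4.70e-04, edgeR), and with scaling by library size alone, at 0.34 (6.41e-04). It also passed with no filter on low counts, at 0.18 (0.00183), and with a mean of at least 50, at 0.28 (0.00412). With no filter its SE was 0.05 in place of 0.07, from the same libraries.

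ACACA, the acetyl-CoA carboxylase of the committed step, gave 4958, 5216 and 5866 in WT and 4957, 6336 and 3239.9 in Delta-TRRAP. The Delta-TRRAP libraries lay on both sides of WT, and the log2 fold change of -0.14 ± 0.16 did not pass (adjusted p 0.438, edgeR). Without Delta-TRRAP replicate 2 it was -0.38 and passed (adjusted p 0.00272), and without Delta-TRRAP replicate 3 it was 0.08. With no filter on low counts it was -0.17 and passed (adjusted p 0.00785, edgeR). In that fit the SE was 0.06 in place of 0.16, from the same libraries. Between those replicates, the log2 ratio of replicate 3 to replicate 2 had a median of 0.09 over 3159 transcripts under 2000 bases and of -0.23 over 911 transcripts of at least 8000 bases. It was -0.97 for ACACA, -0.32 for FASN and -0.22 for ACLY. The part of transcript length in the ACACA values was not tested.

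The desaturases diverged. SCD, the delta-9 desaturase that makes oleate, gave 39684, 43169.8 and 44193 normalized counts in WT and 65821, 70546 and 62094 in Delta-TRRAP. The groups did not overlap, and SCD rose by 0.64 ± 0.06 on the log2 scale, or 1.56-fold (adjusted p 1.64e-07, edgeR). FADS2, the delta-6 desaturase whose gene overlaps FADS1 on the opposite strand, gave 897, 904 and 879 in WT and 1269.9, 1229 and 1215 in Delta-TRRAP. It rose by 0.47 ± 0.05 (adjusted p 1.28e-06, edgeR) while FADS1 fell. ELOVL6, the elongase of palmitate, did not pass at 0.15 ± 0.05 (adjusted p 0.0129, edgeR). It did pass with scaling by library size alone (adjusted p 8.54e-05, edgeR) and with a mean of at least 50 (6.01e-04).

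FADS1 and FADS2 act at separate steps of polyunsaturated fatty acid synthesis and lie side by side on chromosome 11. Per kilobase of transcript, FADS1 stood 43.3, 45.5 and 46.7 times above FADS2 in the WT libraries and 10.8, 11.6 and 10.02 times above it in the Delta-TRRAP libraries. The ratio was lower in every Delta-TRRAP library, and it needs no scaling between libraries. Counting used strand, so reads of the overlapping parts went to the gene of their own strand.

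The third gene of the cluster, FADS3, also fell, with a log2 fold change of -2.01 ± 0.06 (adjusted p 3.23e-13, edgeR). FADS1 stood 5.54 to 6.54 times above FADS3 per kilobase in WT and 7.11 to 9.18 times in Delta-TRRAP. Of the 20 nearest expressed genes outside the list, FADS3 among them, 7 fell and 4 rose, and 3 were called lower and 1 higher. Over all genes tested 27.6% fell and 30.7% rose, and 6.08% were called lower and 16.5% higher. The others called were TMEM216 at -1.13, RAB3IL1 at -1.03 and BEST1 at 1.20 on the log2 scale. Also close by, FEN1 stood at -0.14, MYRF at 0.00 and TMEM258 at -0.46, all 6 of these neighbours being named after their values were seen. Relative to the median of the 20, FADS1 was at -1.52.

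**Figure D3:**
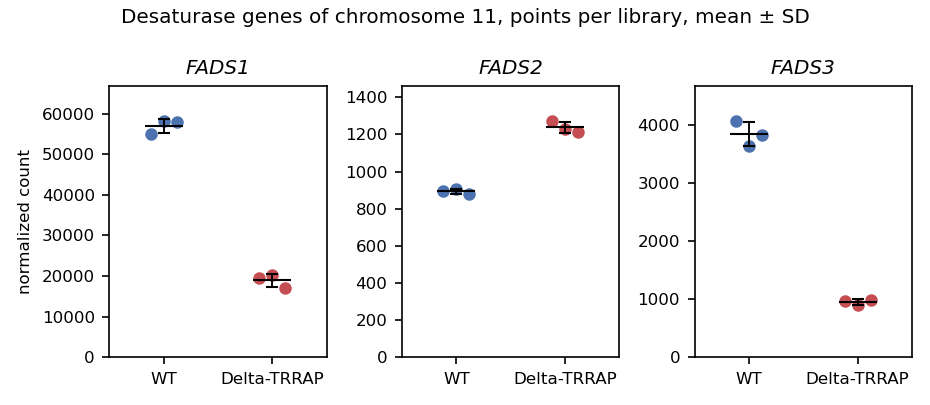
Normalized count (y axis) of the FADS genes of chromosome 11 in each library (points), with mean and SD (3 libraries a group). FADS1 and FADS3 are lower in all 3 Delta-TRRAP libraries while FADS2 is higher in all 3.

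Relative to local expression the list changed in its order but not in its leading gene. The median log2 fold change of the 20 nearest expressed genes ran from -0.61 to 0.25 over the 30 genes. HMGCS1 reached 1.70 against a neighbour median of -0.42, STARD4 1.20 and FADS1 -1.52. ELOVL6, at 0.15 on its own, stood at 0.77 against a neighbour median of -0.61. These are descriptions with no test.

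Levels per kilobase of transcript place the changes on the scale of the pathway. FADS1 was the most abundant of the 30 in WT, at 13050.1 normalized counts per kilobase, and the 10th in Delta-TRRAP, at 4342. FDFT1 moved from the 4th place to the first, from 7764 to 13373 per kilobase. SCD and INSIG1 followed it in Delta-TRRAP, and SQLE went from the second place to the 4th. At the bottom, CYP51A1 held the 30th place in both groups, at 24.6 and 35.8 per kilobase, and SREBF1 went from the 24th to the 28th.

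**Figure D4:**
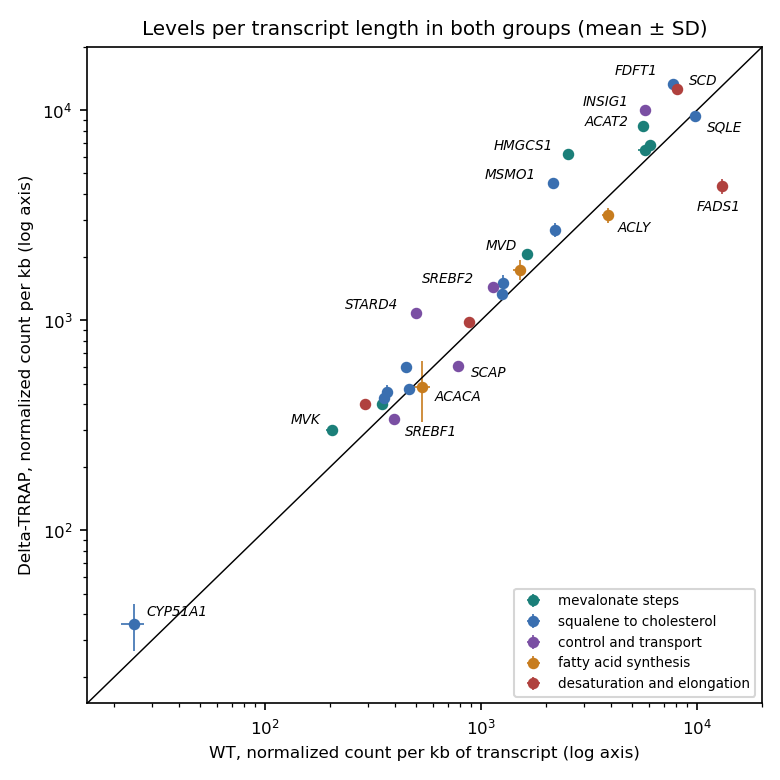
Mean normalized count per kilobase of canonical transcript in WT (x axis) and Delta-TRRAP (y axis), both log scales, for the 30 genes, with SD bars and a diagonal at equal levels. FADS1 lies below the diagonal, and HMGCS1, MSMO1 and STARD4 lie above it.

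Each of 6 lists of related functions around the pathway held genes that rose and genes that fell, as did all genes tested. The counts below stand beside the 30.7% of all genes tested that rose and the 27.6% that fell. Of all genes tested 16.5% were called higher and 6.08% lower. Of 8 genes of SREBP processing and sterol sensing 3 rose and 4 fell, with a median log2 fold change of -0.11 and none called. MBTPS2, the site-2 protease that releases active SREBP, was at the top of this list at 0.84 ± 0.05, and RNF139, a sterol-sensing ubiquitin ligase, at the bottom at -0.77 ± 0.05. These 2 were named after their values were seen. Of 16 genes of the isoprenoid branches and tail enzymes 4 rose and 7 fell, with a median of -0.12 and none called.

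Of 9 genes of sterol uptake, movement and storage 4 rose and 3 fell, with a median of 0.27. The 1 called gene was GRAMD1B, a sterol transfer protein, with 1.01, 0.959 and 0.00 normalized counts in WT and 18.6, 20.5 and 13.8 in Delta-TRRAP. The WT level is near the detection floor, so no fold is given. Of 7 genes tested for LXR and sterol efflux 3 rose and 1 fell, with a median of 0.16. ABCA1, the sterol efflux pump, was called higher at 1.46 ± 0.35, from 7.97 to 22.1 normalized counts, and LPCAT3, a phospholipid acyltransferase, was called lower at -1.08 ± 0.07, from 1462 to 693.

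The other genes of fatty acid synthesis, elongation and activation moved in both directions, as did all genes tested (30.7% rose, 27.6% fell, 16.5% called higher, 6.08% called lower). Of 24 tested, 7 rose and 12 fell, 4 were called higher and 5 lower, and the median was -0.24. By size of change, THRSP, a regulator of lipogenesis, was called higher, at 1.66 mean normalized counts in WT and 19.9 in Delta-TRRAP, where the WT level is again too low for a fold. HACD1, a dehydratase of the elongation cycle, was called lower at -2.50 ± 0.13, ELOVL3, an elongase, at -2.19 ± 0.30 and FADS3 at -2.01. Of 9 genes of fatty acid oxidation 3 rose and 1 fell, with a median of -0.11. CPT2, a carnitine palmitoyltransferase of mitochondria, was the 1 called gene, at 1.08 ± 0.05, from 1125 to 2373 normalized counts (adjusted p 5.82e-11, edgeR). ACACB and MLYCD, which make and remove malonyl-CoA, were also called higher, at 1.86 and 1.78, and are named after their values were seen.

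**Figure D5:**
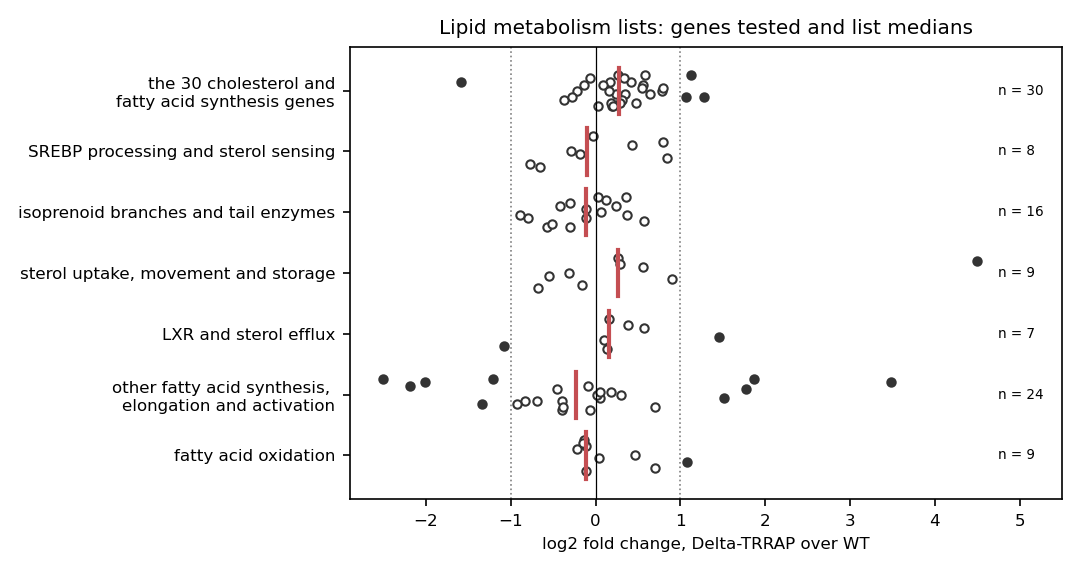
Log2 fold change, Delta-TRRAP over WT, of each tested gene in the list of 30 and in the 6 related lists, with filled points for called genes, red bars for list medians and dotted lines at a fold of 2. The medians lie between -0.24 and 0.28.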

How the data were processed

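Poly(A) RNA of 3 WT and 3 Delta-TRRAP K562 cultures was sequenced with a stranded kit. The authors aligned reads to hg38 with STAR, kept uniquely mapping reads, and deposited raw counts per gene from HTSeq 2.0.2 (reverse-stranded, union mode, GENCODE release 32). The authors ran DESeq2 (2.11.40.8 in the submitters' processing notes). Their deposited normalized values, with 3 columns from another condition, and their comparison table of fold changes and p-values were not used here.

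Groups and replicate numbers came from the sample titles. Counts were scaled by TMM and tested with edgeR 4.0.16 in R 4.3.3 (quasi-likelihood F test, group as the only term) where the mean over the libraries reached 5 normalized counts. A normalized count is the count over the effective library size, times the geometric mean of these sizes. Genes with an adjusted p of 0.01 or less (Benjamini-Hochberg) and a fold change of at least 2 were called, as in the study's methods. Positive log2 fold changes are higher in Delta-TRRAP. The SE of a log2 fold change is its absolute value over the square root of the F statistic of the edgeR test. Positions and transcript lengths came from GENCODE release 44 on GRCh38, which is not the release counted on. Neighbour values used the 20 nearest genes with a mean of at least 100. The 30 genes, the related lists and the rule for naming genes were chosen with earlier results of these data known. The rule named all 30 genes, EP400, and up to 4 called genes of each related list. The fit was tested on simulated data. Alternatives were DESeq2 1.42.0, other scalings and filters, a fold of 1.5, a replicate block and leaving out each library. Totals of 35076835 to 42616061 counts leave the spread between libraries, and not counting error, as the main limit for abundant genes. Replicates within a group differed by more than counting noise in every pair.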

Additional observations from a re-analysis of the deposited data

How the results depend on the processing

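The 4 called genes were called in all 12 refits of the test that kept the 2-fold requirement (DESeq2, other scalings and filters, the replicate block and each library left out). At a fold of 1.5, 7 of the 30 genes were called higher and 1 lower, the additions being ACAT2, FDFT1, INSIG1 and SCD. Of all 19114 genes tested, 4188 were called higher and 2562 lower at that fold. Over all genes, 1964 were called with a mean of at least 50 (1291 higher, 673 lower) and 6750 at a fold of 1.5 (2562 lower), beside 4322 (1162 lower), where the lower fold requirement accounts for the 6750. The mean of at least 50 tested fewer genes and also recomputed the scaling on them, which raised each log2 fold change of the 30 genes, and the parts of these changes were not told apart. In the related lists 4 were called higher with a mean of at least 50, and 12 higher and 14 lower at a fold of 1.5.

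With a mean of at least 50, 23 of the 30 genes rose and 3 fell, SREBF1 no longer passing. Over all genes tested with that filter the median log2 fold change was 0.0052, and the shares that rose or fell were not counted. With scaling by library size alone 2 of the 30 genes fell, since SREBF1 and ACLY no longer passed, the median of the 30 was 0.41 and the log2 ratio of summed levels 0.35. That median was 0.35 with a mean of at least 50 and 0.36 relative to neighbours, and it ran from 0.24 to 0.31 when each library was left out. The summed ratio was 0.13 without SCD and 0.20 to 0.24 with each library left out. SQLE changed sign with library size alone (0.070), a mean of at least 50 (0.0091) and relative to neighbours (0.15). With each library left out HSD17B7 ran from -0.0055 (without WT replicate 3) to 0.061, EP400 from -0.026 (without Delta-TRRAP replicate 2) to 0.29, ACACA from -0.38 to 0.076 (without Delta-TRRAP replicate 3) and the fatty acid synthesis median from -0.33 to 0.076. Leaving out each library gave 14 to 18 of the 30 genes that rose and 4 to 5 that fell. The all-gene shares were not counted in those fits.

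Deviations of same-numbered libraries correlated at 0.087, -0.084 and -0.19, and so the numbers gave no pairing. A replicate block called 4184 genes, and 16 of the 30 genes rose and 4 fell. The shares of all genes that rose or fell with the block were not counted. FDPS (adjusted p 0.0175) and EBP (0.0118) no longer passed and CYP51A1 (0.00526) did. The causes of these shifts were not tested. With 3 libraries of 1 clone per group, variation between clones could not be measured.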
